A study of Rattus norvegicus with 30 samples.

Results

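Kidneys of male rat pups whose dams had been fed a low-protein diet were compared at postnatal days 28 and 10 (the D28-LP and D10-LP groups). The comparison took 10 of the 30 arrays of the series, 5 in each group, by their labelled diet and age, and subtracted the D10-LP mean from the D28-LP mean for each probe set. All pups were of the stroke-prone spontaneously hypertensive strain (SHRSP). The LP dams ate 9% casein during pregnancy, and the dams of the control groups (D28-CN and D10-CN, 5 arrays each) ate 20% casein. After delivery every dam ate a commercial diet, and male pups left their dams in the fourth postnatal week and were then given commercial diet and water. D10 pups were still with their dams, so age and the pups' own food cannot be told apart in this comparison.

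The labels call the arrays of a group biological replicates, while the methods speak of pooled kidney RNA from each group, and litters are not given. The p-values below therefore measure the spread between arrays, which may be partly technical. Whole kidney RNA was measured, so more cells of a type and more RNA per cell cannot be told apart.

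The rat kidney is still forming nephrons at birth and finishes this in the early postnatal days. Its tubules then mature, as transporters and metabolic enzymes of the proximal tubule are switched on, the medulla acquires its concentrating machinery, and the dividing, matrix-rich tissue between the tubules recedes.

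Each value is a log2 expression level of a probe set, so a difference of 1 is 2-fold. Of 31042 probe sets tested, 1803 (5.81%) differed by at least 2-fold at an adjusted p under 0.05 (limma with Benjamini-Hochberg adjustment), and these are called changed below. In the D28-LP kidneys 806 (2.6%) rose and 997 (3.21%) fell. The 806 probe sets that rose covered 521 named genes and the 997 that fell covered 627. Without the 2-fold requirement 17648 probe sets (56.9%) passed the adjusted p, 9077 of them higher and 8571 lower, and at 42% of all probe sets (20.8% higher and 21.1% lower) the 5 D28-LP arrays did not overlap the 5 D10-LP arrays. Changes past 4-fold were found at 132 probe sets that rose and 128 that fell.

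The balance of rises and falls depends on the scale. The hybridization control probe sets, which report RNA added in fixed amounts, averaged 10.57 ± 0.16 in the D28-LP group and 10.14 ± 0.12 in the D10-LP group (SD, n = 5 arrays each), a difference of 0.44 (2-sided exact permutation test, p = 0.00794, which is the smallest that 252 splits allow). The 24 poly-A control probe sets also averaged higher in the D28-LP group, by 0.50 (0.08 to 1.00 by probe set). When each array was centred on the hybridization controls, 352 probe sets rose and 3030 fell, and the median of all probe sets was −0.41 in place of 0.02. Every difference moves by −0.44 on that scale, so rises that passed 2-fold by less than this lose their call there, among them those given below for *Slc3a1*, *Slc6a18*, *Prodh*, *Scnn1a*, *Aqp4*, *Tsc22d3*, *Usp18*, *Agt*, *Ptger1*, *Atf3*, *Alas2* and *Hemgn* (0.58 to 0.92 on that scale). Quantile normalization of the 10 arrays together gave 814 rises and 976 falls. All differences below are on the deposited scale, on which array means were 6.86 to 6.87 in the D28-LP group and 6.85 to 6.87 in the D10-LP group. Arrays of the same group correlated at 0.986 to 0.998, and arrays of different ages at 0.957 to 0.970. The first principal component carried 75.0% of the variance.

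The largest upward difference on this scale was that of *Ugt2b35*, a glucuronosyltransferase, an enzyme class that conjugates lipophilic compounds for excretion. Its log2 level was 11.30, 10.76, 10.02, 10.83 and 11.29 in the D28-LP arrays and 2.76, 2.95, 3.05, 3.07 and 2.84 in the D10-LP arrays. All 5 D10-LP values lay below 3.91, the 10th percentile of probe set means in that group, and all 5 D28-LP values lay above the median probe set of theirs at 6.77. The log2 difference was 7.90 ± 0.21 (SE, adjusted p = 1.72e-10). The files carry no detection call, so levels near the low end of the scale are not shown to be above background, and no fold is given against them.

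*Cyp4a8*, a fatty acid hydroxylase of the cytochrome P450 family, followed with 12.00, 11.96, 11.82, 12.02 and 11.52 in the D28-LP arrays against 5.63, 5.66, 5.22, 4.81 and 5.05 in the D10-LP arrays. The difference was 6.59 ± 0.16 (adjusted p = 1.22e-10), and the gene's other probe set rose by 5.39. *Slco1a1*, an organic anion transporter of the proximal tubule, was at 9.46, 9.66, 8.65, 9.31 and 8.32 in the D28-LP arrays and at 2.90 to 3.23 in the D10-LP arrays. Its difference was 6.05 ± 0.22 (adjusted p = 2.73e-09). The groups were separated by more than 5 log2 units for both transcripts.

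Others among the 15 largest rises were *Hnmt*, the histamine methyltransferase (5.32), *Klk1c4*, a tissue kallikrein (4.33), *Steap4*, a metalloreductase (4.00), *Sult1c2*, a sulfotransferase (3.90), *Slc7a12*, an amino acid transporter (3.74), *Tff3*, a trefoil peptide of mucosal surfaces (3.63), *Gba3*, a cytosolic glucosidase (3.38), *Osgin1*, an oxidative stress-induced growth inhibitor (3.35), and *Fst*, the activin antagonist follistatin (3.31). The second *Hnmt* probe set differed by 0.21 and was not called, whereas the second *Fst* probe set rose by 3.33. *Gba3* had the largest standard error of these (0.39), with 9.36 to 10.62 in the D28-LP arrays and 5.75 to 7.81 in the D10-LP arrays, still without overlap.

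The largest falls were those of *Nefm* and *Nefl*, which encode neurofilament chains of nerve fibres. *Nefm* was at 4.06, 4.11, 4.16, 4.27 and 4.61 in the D28-LP arrays and at 9.87, 9.71, 10.17, 10.39 and 9.97 in the D10-LP arrays, a difference of −5.78 ± 0.14 (adjusted p = 9.00e-11). *Nefl* was at 4.01 to 4.31 in the D28-LP arrays and at 9.62 to 10.22 in the D10-LP arrays, a difference of −5.76 ± 0.10 (adjusted p = 1.86e-11), and its second probe set fell by 6.06. Both genes thus lay above the median probe set (6.81) in every D10-LP array and near the 10th percentile of probe set means (3.96) in the D28-LP arrays.

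*Afp*, the fetal serum protein alpha-fetoprotein, was at 3.67, 3.64, 3.49, 3.54 and 3.58 in the D28-LP arrays and at 9.07, 9.03, 8.48, 7.98 and 8.52 in the D10-LP arrays, a difference of −5.03 ± 0.17 (adjusted p = 1.89e-09). *Armh4* (−4.65), the fibrillar collagen gene *Col24a1* (−3.93), *Shisa3* (−3.86), *Vwc2*, a secreted bone morphogenetic protein antagonist (−3.77), *Cthrc1*, a secreted protein of collagen-producing cells (−3.68), the ephrin receptor *Epha3* (−3.42), the luteinizing hormone receptor *Lhcgr* (−3.19), *Moxd1* (−3.17) and the interleukin-13 decoy receptor *Il13ra2* (−3.15) also fell. The second *Lhcgr* probe set differed by −0.18 and was not called.

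**Figure D1:**
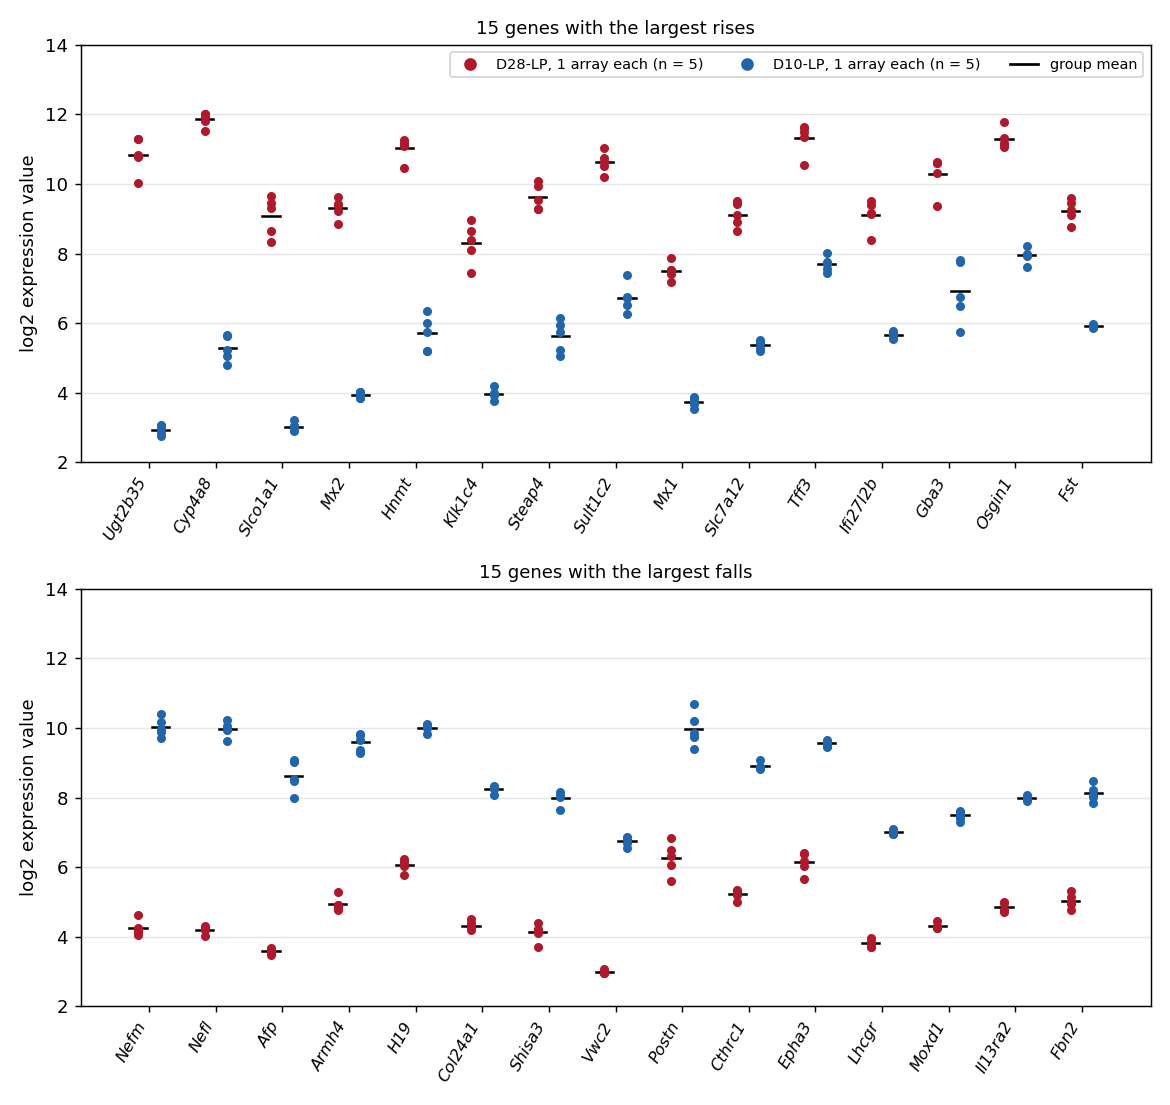
Log2 expression level of the 15 genes with the largest rises (top) and the 15 with the largest falls (bottom); each point is 1 array, D28-LP left of D10-LP, and the bars are group means. *Ugt2b35* (difference 7.90) and *Nefm* (difference −5.78) lie at the extremes. No D28-LP array overlaps a D10-LP array for any of the 30 genes, which follows from their choice by size of change. Among all probe sets 42% do not overlap.

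Markers were read to see what the samples held. The 11 measured kidney identity genes, among them the uromodulin gene *Umod* and the transcription factor genes *Pax2* and *Pax8*, averaged 11.13 to 11.18 in the D28-LP arrays and 10.76 to 10.95 in the D10-LP arrays. Inner medulla markers averaged 10.94, 11.42, 11.85, 11.60 and 11.17 in D28-LP replicates 1 to 5 and 10.64 to 10.96 in the D10-LP arrays. Cortex markers averaged 11.31, 11.10, 10.48, 10.77 and 11.24 in D28-LP replicates 1 to 5 and 10.57 to 11.09 in the D10-LP arrays. The D28-LP arrays thus differed among themselves, with replicate 3 highest for the medulla and lowest for the cortex, and for both regions the groups overlapped.

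Of 8 measured adipose tissue markers, 5 fell and 1 (*Cidec*, a lipid droplet protein gene, 1.80) rose. Their mean was 7.32, 6.83, 7.02, 6.70 and 6.70 in the D28-LP arrays and 8.66, 8.75, 7.20, 8.27 and 6.71 in the D10-LP arrays. *Ucp1*, the uncoupling protein of brown fat, was at 7.36, 6.67, 7.91, 6.65 and 6.58 in the D28-LP arrays and at 10.49, 10.89, 8.68, 10.70 and 7.80 in the D10-LP arrays, so D10-LP replicates 1, 2 and 4 stood apart. Without these 3 arrays, 912 probe sets rose and 1070 fell, and 1700 of the 1803 calls were kept. The falls of *Cidea* (−0.35 in place of −1.89), *Plin1* (−0.42 in place of −1.36) and *Fabp4* (−0.11 in place of −1.17) were no longer called. These genes are among the markers by which the arrays were picked, so their smaller falls follow from that choice. Only D10-LP replicates 3 and 5 remained, so the D10-LP means rest on fewer arrays in this run, in which 1982 probe sets were called. In the same run the genes called higher numbered 11 in place of 8 in amino acid and creatine metabolism, 11 in place of 9 in drug metabolism and 9 in place of 7 among organic ion transporters. Cortex markers averaged 11.04, 11.09, 10.83, 10.57 and 10.81 in D10-LP replicates 1 to 5, and the amino acid genes 9.78, 9.85, 9.42, 9.09 and 9.36. Of the arrays left out, replicates 1 and 2 were thus highest for both lists and replicate 4 was lowest. The part of either tissue in these counts was not tested.

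Of 7 red blood cell markers, *Slc4a1*, *Hemgn* and *Alas2* rose (1.96, 1.11 and 1.09) and the others differed by 0.27 to 0.60, with a list mean of 7.76 to 8.09 in the D28-LP arrays and 6.99 to 7.21 in the D10-LP arrays. The rise of *Hemgn* was not called without D28-LP replicate 1 (0.94). *Slc4a1* also encodes the anion exchanger of intercalated cells. Adrenal markers averaged 4.87 to 5.07 in the D28-LP arrays and 4.72 to 4.77 in the D10-LP arrays, and skeletal muscle markers averaged 5.04 to 5.14 in the D28-LP arrays and 5.02 to 5.13 in the D10-LP arrays. Apart from the run without the 3 D10-LP arrays, which stood apart in cortex markers too, the part of these markers in the results below was not tested.

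**Figure D2:**
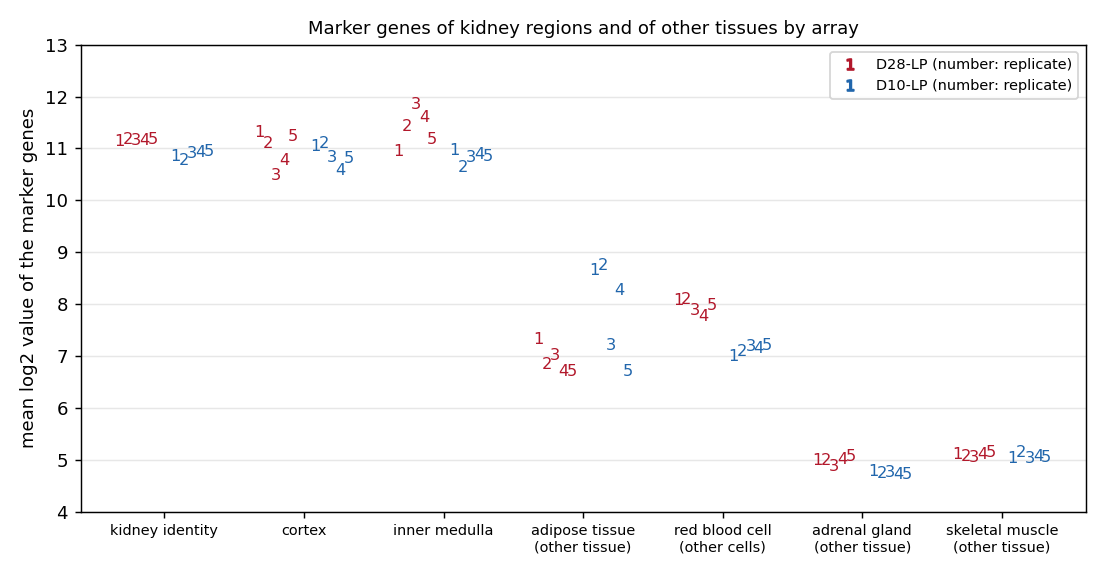
Mean log2 level of the marker genes of the kidney, of its cortex and inner medulla, and of 4 other sources, by array; the digits are replicate numbers, D28-LP left of D10-LP. D10-LP replicates 1, 2 and 4 lie at 8.66, 8.75 and 8.27 for adipose markers, above the other 7 arrays, and the inner medulla mean of the D28-LP arrays runs between 10.94 and 11.85.

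Proximal tubule genes for the handling of organic ions and foreign compounds were among the groups that rose most often. Of 18 organic ion transporters, 7 rose and none fell, against 5.81% of all probe sets called, and the list's median difference was 0.76 against 0.02 for all probe sets. Besides *Slco1a1*, these were *Slco1a6* (2.58 ± 0.12), the basolateral organic cation transporter *Slc22a2* (2.27 ± 0.13), the anion transporter *Slc22a7* (2.15 ± 0.12), the efflux pump *Abcb1a* (1.57), *Slc22a13* (1.14) and the urate transporter *Slc22a12* (1.03). *Slco1a6* was at 11.64, 11.56, 11.51, 11.65 and 11.64 in the D28-LP arrays and at 9.35, 9.15, 9.12, 8.59 and 8.91 in the D10-LP arrays.

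Of 22 genes of drug metabolism and conjugation, 9 rose and 2 fell, with a median of 0.83. The sulfotransferases *Sult1c2*, *Sult1b1* (mean 10.61 in the D28-LP and 8.62 in the D10-LP arrays) and *Sult1a1* (1.73), the glutathione transferase *Gsta1* (1.97 ± 0.17) and the flavin monooxygenase *Fmo1* (1.86 ± 0.26) rose, whereas *Cyp1b1* (−1.84) and *Gsta3* (−1.17) fell. Both subunits of the rate-limiting enzyme of glutathione synthesis rose as well, *Gclc* by 1.60 ± 0.10 and *Gclm* by 1.44 ± 0.13. They were the 2 members called among 20 antioxidant enzyme genes.

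Amino acid and creatine metabolism had 8 rises and no fall among 25 genes, and all 25 differences were above 0 (median 0.86). *Aass*, the first enzyme of lysine breakdown, was at 11.68, 11.59, 11.11, 11.36 and 11.88 in the D28-LP arrays and at 9.43, 9.59, 9.07, 8.43 and 8.74 in the D10-LP arrays, a difference of 2.47 ± 0.21 (adjusted p = 2.20e-06). *Kynu* of tryptophan breakdown (1.51 ± 0.22), the ornithine aminotransferase *Oat* (1.48 ± 0.14) and the proline dehydrogenase *Prodh* (1.36 ± 0.07) followed, although the mean of the *Prodh* probe sets differed by 0.72 and was not called. *Khk*, the ketohexokinase of fructose use, rose by 1.54 ± 0.12. When arrays were centred on the hybridization controls, 3 of the amino acid genes, 5 of the drug metabolism genes and 5 of the organic ion transporters rose.

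Of 18 other solute transporters of the proximal tubule, for sugars, amino acids, phosphate and other ions, 3 rose, namely the sodium-proton exchanger *Slc9a3* (1.64 ± 0.07), *Slc3a1* (1.16 ± 0.15) and *Slc6a18* (1.03 ± 0.10), and the list's median was 0.46. The call of *Slc6a18* was lost under quantile normalization (0.99), under hybridization control centring (0.59) and without D28-LP replicate 1 (0.99), D28-LP replicate 5 (0.99) or D10-LP replicate 4 (0.95). The phosphate transporter *Slc34a1* averaged 13.17 ± 0.22 in the D28-LP arrays and 12.76 ± 0.21 in the D10-LP arrays (SD, n = 5 each), so the groups overlapped and the difference was 0.41 ± 0.12 (SE). None of 31 respiratory chain and citrate cycle genes, 18 genes of fatty acid oxidation or 16 glycolytic genes was called, with medians of 0.13, 0.14 and 0.12. The nuclear receptor *Ppara*, an activator of fatty acid oxidation genes, had a difference of 0.86 ± 0.11 (adjusted p = 3.61e-05), under 2-fold.

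In the thick ascending limb, which dilutes the urine, *Ppp1r1b* (2.64 ± 0.14) and the growth factor gene *Egf* (1.51 ± 0.06) rose among 12 genes. *Egf* was at 12.88, 12.97, 12.76, 12.91 and 12.98 in the D28-LP arrays and at 11.37, 11.33, 11.52, 11.26 and 11.46 in the D10-LP arrays. The sodium-potassium-chloride cotransporter *Slc12a1* differed by 0.17 ± 0.07 and did not pass the test (adjusted p = 0.0557).

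Among 13 principal cell genes of the collecting duct, *Sgk1*, a kinase that activates sodium channels (1.68 ± 0.12), the sodium channel subunit *Scnn1a* (1.15 ± 0.12, but 0.77 and not called as the mean of its probe sets) and the basolateral water channel *Aqp4* (1.01 ± 0.23) rose. *Aqp4* was at 10.10, 10.42, 11.56, 10.99 and 10.43 in the D28-LP arrays and at 9.68, 9.32, 9.77, 9.75 and 9.90 in the D10-LP arrays. Its highest value was that of D28-LP replicate 3, the array highest for inner medulla markers, but *Aqp4* is itself among those markers. Without that array the difference was 0.80 and not called. The call was also lost without D28-LP replicate 4 (0.94) or D10-LP replicate 2 (0.92), and without the 3 D10-LP arrays high in adipose markers (0.86, adjusted p = 0.0576). It was lost as well under quantile normalization (0.997) and under hybridization control centring (0.58). The apical water channel *Aqp2* was at 12.08 to 12.95 in the D28-LP arrays and at 12.00 to 12.53 in the D10-LP arrays, a difference of 0.15 ± 0.15. The inositol transporter *Slc5a3*, which loads medullary cells with an osmolyte, rose by 1.72 ± 0.16, and the mean of its probe sets differed by 0.89.

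The list of corticosteroid receptors, metabolizing enzymes and targets had 7 of 11 genes higher and none lower, with a median of 1.35, and 5 higher under hybridization control centring. *Hsd11b1*, which regenerates active glucocorticoid, was at 12.18, 12.06, 12.05, 12.19 and 12.34 in the D28-LP arrays and at 10.02, 9.92, 9.34, 9.27 and 9.38 in the D10-LP arrays, a difference of 2.58 ± 0.15 (adjusted p = 7.91e-08). The transcription factor gene *Klf9* (1.88 ± 0.07), *Sgk1*, *Fkbp5* (1.64 ± 0.33) and *Tsc22d3* (1.35 ± 0.14), all induced by glucocorticoids, rose too. The glucocorticoid receptor gene *Nr3c1* differed by −0.15 ± 0.07, and *Hsd11b2*, which inactivates glucocorticoid in the distal nephron, by −0.54 ± 0.08 (adjusted p = 0.000116).

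*Fkbp5* was uneven among the D28-LP arrays, at 9.48, 9.08, 9.43, 8.86 and 7.37, against 7.09, 6.93, 7.31, 7.29 and 7.43 in the D10-LP arrays. D28-LP replicate 5 lay within the D10-LP range for this gene, and *Tsc22d3* was also lowest there, at 11.48 against 12.17 to 12.36 in the other D28-LP arrays. One further *Klf9* probe set rose by 1.89 and another differed by −0.0048.

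Of 17 clock genes 6 rose and none fell, with a median of 0.72, against 2.6% of all probe sets called higher. Under hybridization control centring 4 were called higher and 3 lower, beside 352 and 3030 of all 31042 probe sets. *Nr1d1*, a repressor in the core loop, was at 7.31, 7.18, 8.38, 8.18 and 7.54 in the D28-LP arrays and at 5.44, 5.23, 5.20, 5.60 and 5.37 in the D10-LP arrays (2.35 ± 0.21). *Per1* rose by 2.01 ± 0.10, and the output factors *Hlf* and *Dbp* rose by 1.94 ± 0.12 and 1.75 ± 0.07. *Bmal1*, the activator that runs opposite to *Nr1d1* in the clock, was at 6.70, 6.44, 6.57, 6.72 and 7.06 in the D28-LP arrays and at 7.49, 7.53, 7.40, 7.12 and 7.07 in the D10-LP arrays, a difference of −0.62 ± 0.13 (adjusted p = 0.00124), and −1.06 with arrays centred on the hybridization controls. The hour at which kidneys were collected is not given in the sources used here.

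Interferon response genes gave some of the clearest separations. Of 20 measured genes 7 rose (6 under hybridization control centring) and none fell, the median was 0.88, and at 18 of the 20 the groups did not overlap, against 42% of all probe sets. *Mx2*, an antiviral GTPase, was at 8.84, 9.23, 9.43, 9.61 and 9.40 in the D28-LP arrays and at 3.86, 3.86, 3.92, 4.02 and 4.03 in the D10-LP arrays, a difference of 5.36 ± 0.12 (adjusted p = 7.67e-11). Its second probe set rose by 4.12.

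*Mx1* was at 7.19, 7.52, 7.52, 7.86 and 7.40 in the D28-LP arrays and at 3.72, 3.53, 3.68, 3.82 and 3.87 in the D10-LP arrays (3.77 ± 0.11). *Ifit3*, which binds viral RNA complexes, was at 6.40, 6.82, 6.84, 7.10 and 6.93 in the D28-LP arrays and at 3.55, 3.53, 3.62, 3.85 and 3.72 in the D10-LP arrays (3.17 ± 0.12). The transcription factor gene *Irf7* (2.65 ± 0.11), the 2′-5′-oligoadenylate synthetase *Oas1a* (2.57 ± 0.06), the ubiquitin-like modifier *Isg15* (2.53 ± 0.11) and its protease *Usp18* (1.22 ± 0.11) rose as well. D28-LP replicate 1 was lowest of its group for all of these but *Oas1a*. *Ifi27l2b*, an interferon-induced gene outside the list, rose by 3.46 ± 0.17.

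Other members stayed under 2-fold. *B2m*, *Psmb8* and *Psmb9* of antigen presentation differed by 0.96, 0.94 and 0.88, the signal transducer *Stat2* by 0.52, and *Ifit1* by −0.28. Of 19 macrophage and antigen presentation genes, 6 rose (3 under hybridization control centring), among them lysozyme *Lyz2* (2.01 ± 0.18), the class II genes *RT1-Da* (1.59 ± 0.21) and *RT1-Ba* (1.33) and their chaperone *Cd74* (1.53 ± 0.11). The macrophage receptor genes *Csf1r* and *Cd163* differed by 0.45 and −0.27.

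The interferon-stimulated response element is the sequence bound by interferon-activated factors, and the promoters of the called genes with an entry in the RefSeq promoter table were searched for it on both strands as GAAA, any 2 bases and GAAA, in the 250 bases before each gene's start. Of the 4 called genes with an entry, 3 held it, as did 5 of 11 uncalled list members, and 3.61% of all 27457 genes with a promoter. Among the genes called higher, 5.77% held it (24 of 416 with an entry), and among those called lower, 2.62% (13 of 497). The genes called higher include the called interferon response genes. The stretches are shown for the 3 genes with a match (GRCr8, matches in capitals) and for *Mx1*, whose last 100 bases before the start are shown and whose window held no match. They lie at chr1:241527237-241527325 (plus strand) for *Ifit3*, chr12:41330380-41330465 (plus strand) for *Oas1a*, where 2 matches overlap, chr1:205800038-205800137 (minus strand) for *Irf7* and chr11:50294607-50294706 (minus strand) for *Mx1*.
Ifit3: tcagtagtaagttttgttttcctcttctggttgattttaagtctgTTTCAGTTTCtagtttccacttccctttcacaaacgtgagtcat
Oas1a: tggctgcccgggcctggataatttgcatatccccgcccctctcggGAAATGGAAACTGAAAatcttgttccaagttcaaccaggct
Irf7: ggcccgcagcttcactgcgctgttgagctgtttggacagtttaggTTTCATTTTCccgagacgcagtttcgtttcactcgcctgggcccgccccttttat
Mx1: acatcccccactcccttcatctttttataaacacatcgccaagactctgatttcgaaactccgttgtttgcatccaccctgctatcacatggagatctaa

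A match is a description of the letters in this window. The rises of the matching genes (2.57 to 3.17) and of *Mx1* (3.77) were alike in direction.

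Of 31 genes of DNA replication and mitosis 14 fell, none rose and 17 were not called, against 3.21% of all probe sets called lower. The median was −0.92, and the list mean was 7.65 to 7.91 in the D28-LP arrays and 8.58 to 8.77 in the D10-LP arrays. Under hybridization control centring 24 fell, beside 3030 of all 31042 probe sets. *Mcm6*, a subunit of the replicative helicase, was at 7.90, 7.79, 7.34, 7.56 and 7.48 in the D28-LP arrays and at 9.77, 9.99, 9.77, 9.53 and 9.80 in the D10-LP arrays, a difference of −2.15 ± 0.11 (adjusted p = 4.17e-08). *Bub1b* of the spindle checkpoint fell by 2.04, the chromatin remodeller *Hells* by 1.87 and *Mcm3* by 1.64.

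The division marker *Mki67* was at 8.63, 8.80, 8.56, 8.70 and 8.53 in the D28-LP arrays and at 9.56, 9.83, 9.87, 9.72 and 9.81 in the D10-LP arrays (−1.11 ± 0.07), and the topoisomerase *Top2a* (−1.33 ± 0.09) and cyclin *Ccna2* (−1.45 ± 0.12) also fell. *Mcm7* lay at the 2-fold limit (−1.01 ± 0.06) and lost its call under median centring (−0.97) and without D28-LP replicate 1 (−0.98), D28-LP replicate 5 (−0.98), D10-LP replicate 2 (−0.998) or D10-LP replicate 3 (−0.99). The G1 cyclin *Ccnd1* differed by 0.61, against the direction of the list.

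E2F factors drive replication genes. Their site, searched for as TTTCCCGC or TTTGGCGC on both strands in the same windows, was held by 3 of 11 called proliferation genes with an entry, by 2 of 12 uncalled ones and by 1.34% of all genes with a promoter. Among genes called lower 3.82% held it (19 of 497 with an entry), and among genes called higher 0.24% (1 of 416). The genes called lower include the called proliferation genes. The stretches of the 3 called genes lie at chr13:42404439-42404536 (minus strand), chr12:22163359-22163428 (minus strand) and chr1:246114055-246114128 (plus strand), with the match in capitals.
Mcm6: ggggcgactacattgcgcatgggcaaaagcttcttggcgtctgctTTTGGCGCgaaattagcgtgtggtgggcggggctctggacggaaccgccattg
Mcm7: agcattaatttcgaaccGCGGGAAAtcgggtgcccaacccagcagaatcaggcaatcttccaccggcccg
Hells: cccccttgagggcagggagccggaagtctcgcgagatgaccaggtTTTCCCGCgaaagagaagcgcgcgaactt

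**Figure D3:**
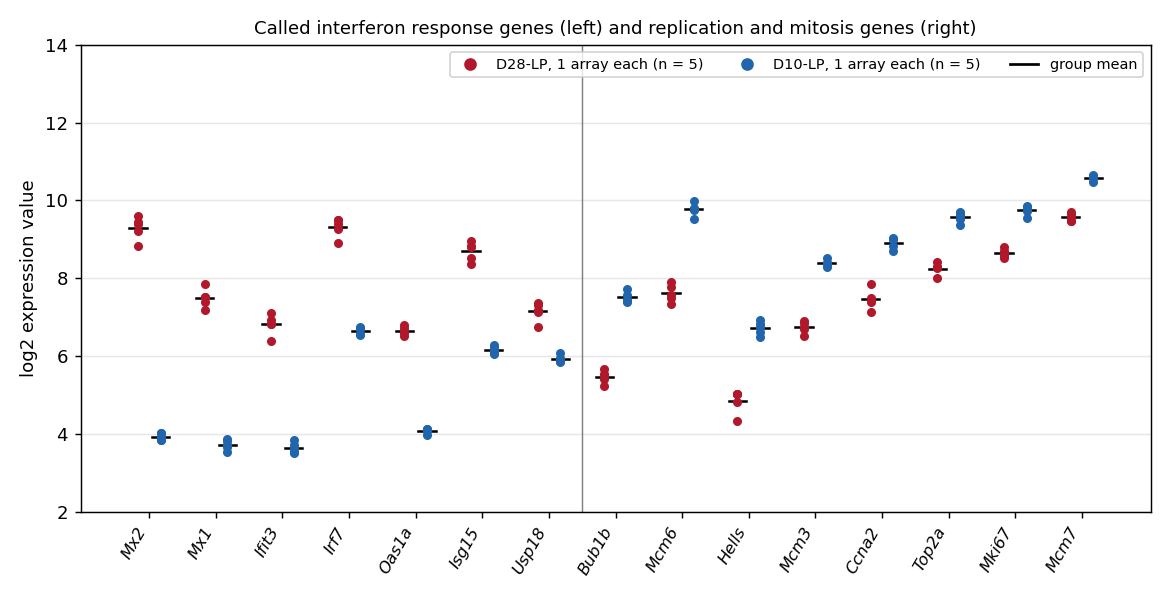
Log2 level of the 7 called interferon response genes and of 8 called replication and mitosis genes; each point is 1 array, D28-LP left of D10-LP, and the bars are group means. The D28-LP arrays lie above the D10-LP arrays for all 7 interferon genes (differences 1.22 to 5.36) and below them for all 8 others (−2.15 to −1.01). Only called genes were plotted, so these directions were set by the choice. The 13 interferon response and 17 replication and mitosis genes that were not called are not shown.

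A mixed list of DNA methylation genes, other chromatin genes and fetal RNA-binding proteins had 7 falls and no rise among 16 genes (median −0.90). Over all probe sets 3.21% were called lower. *Igf2bp3*, an RNA-binding protein of fetal tissue, was at 5.69, 5.93, 5.80, 6.03 and 6.15 in the D28-LP arrays and at 8.27, 8.23, 8.26, 8.00 and 8.25 in the D10-LP arrays, a difference of −2.28 ± 0.09 (adjusted p = 5.28e-09). *Igf2bp2* (−1.47 ± 0.13), *Uhrf1*, which guides maintenance methylation (−1.88 ± 0.11), and the demethylating enzyme *Tet1* (−1.36 ± 0.07) fell. The other chromatin genes *Ezh2* (−1.07) and *Hmgn2* (−1.02) fell too. The maintenance methyltransferase *Dnmt1* differed by −0.92 ± 0.06, with no overlap between the groups, and was not called. *Dnmt3a* (−0.88), *Dnmt3b* (0.18), *Tet2* (0.01) and *Tet3* (0.31) were not called either.

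Of 15 imprinted growth genes 7 fell and none rose (median −0.73), against 3.21% of all probe sets called lower. *H19*, a non-coding RNA expressed from the maternal allele, was at 6.24, 6.04, 6.06, 5.77 and 6.15 in the D28-LP arrays and at 9.84, 10.03, 10.00, 10.12 and 10.05 in the D10-LP arrays, a difference of −3.96 ± 0.09 (adjusted p = 6.43e-11). *Cdkn1c*, an inhibitor of cell division, was at 10.44, 10.54, 11.11, 10.76 and 10.41 in the D28-LP arrays and at 12.98, 12.87, 13.09, 13.30 and 13.17 in the D10-LP arrays (−2.43 ± 0.13). *Mest* (−2.31 ± 0.14), *Nnat* (−2.03 ± 0.14) and *Ndn* (−1.57 ± 0.10) fell as well.

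The growth factor gene *Igf2* was at 7.16 to 7.59 in the D28-LP arrays and at 9.13 to 9.30 in the D10-LP arrays at its brightest probe set (−1.87 ± 0.08), while its 3 other probe sets differed by 0.00 to 0.49 and the mean of all 4 by −0.25. *Grb10* likewise fell at its brightest probe set (−1.29 ± 0.08) and by a mean of 0.58 over its probe sets. *Gnas*, an imprinted gene for a G protein subunit, differed by −0.02 ± 0.07, and *Igf2r* by 0.12.

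Of 29 interstitial matrix genes 12 fell, none rose and 17 were not called (median −0.87), against 3.21% of all probe sets called lower. Under hybridization control centring 20 fell, beside 3030 of all 31042 probe sets. *Postn*, a matrix protein of remodelling tissue, was at 6.84, 6.50, 6.05, 5.60 and 6.31 in the D28-LP arrays and at 10.20, 10.69, 9.39, 9.86 and 9.75 in the D10-LP arrays, a difference of −3.72 ± 0.26 (adjusted p = 3.58e-07). The fetal fibrillin *Fbn2* (−3.09 ± 0.13), fibulin *Fbln1* (−2.61 ± 0.08) and tenascin *Tnc* (−1.79 ± 0.16) followed. The fibrillar collagens differed by less than 2-fold, *Col1a1* by −0.92 ± 0.21 and *Col3a1* by −0.76 ± 0.09, although *Col1a1* was called without D28-LP replicate 3 (−1.08) or without D10-LP replicate 1 (−1.02). Of 18 basement membrane genes 3 fell, the laminin chains *Lama1* (−1.79 ± 0.12), *Lama4* (−1.21 ± 0.10) and *Lamb1* (−1.08 ± 0.09).

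Of 16 Wnt signalling genes 7 fell and none rose (median −0.81), against 3.21% of all probe sets called lower. The secreted inhibitor *Wif1* was at 3.94, 3.99, 3.95, 3.93 and 3.92 in the D28-LP arrays and at 6.57, 6.56, 6.88, 6.60 and 6.58 in the D10-LP arrays, a difference of −2.69 ± 0.07 (adjusted p = 1.13e-10). The nuclear effectors *Lef1* (−1.86 ± 0.11) and *Tcf7* (−1.78 ± 0.18) and the ligands *Wnt11* (−1.88 ± 0.07) and *Wnt4* (−1.66 ± 0.24) of nephron formation fell, the last of them unevenly, at 6.73 to 8.01 in the D28-LP arrays and 8.53 to 9.36 in the D10-LP arrays.

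The 16 genes of nephron progenitors and the ureteric bud did not move together (median 0.01). *Meox2* (−2.62 ± 0.09), *Wnt11*, *Lgr5*, a receptor of nephron-forming cells (−1.73 ± 0.12), *Wnt4* and *Ncam1* (−1.20) fell, and *Meox1* rose by 2.02 ± 0.31. *Meox1* was at 5.53, 6.59, 7.19, 7.05 and 5.67 in the D28-LP arrays and at 4.81, 4.36, 4.10, 4.48 and 4.20 in the D10-LP arrays, and its 3 highest arrays were replicates 2, 3 and 4, the same 3 that were highest for inner medulla markers. The progenitor factor *Sall1*, the ligand *Gdnf* and its receptor *Ret* differed by 0.54, −0.11 and −0.28. Among podocyte genes *Wt1* fell (−1.04 ± 0.09, but −0.97 and not called as the mean of its probe sets) beside *Cdkn1c*, and the slit diaphragm gene *Nphs1* differed by −0.63 ± 0.16.

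In the renin-angiotensin system *Agtr2*, the angiotensin receptor typical of fetal kidney, was at 4.38, 4.22, 4.41, 3.95 and 4.30 in the D28-LP arrays and at 6.73, 6.79, 6.55, 6.48 and 6.55 in the D10-LP arrays (−2.37 ± 0.09, adjusted p = 5.28e-09). Its second probe set differed by −0.44 and was not called. *Agt*, the precursor angiotensinogen, rose by 1.23 ± 0.15, at 5.19 to 6.04 in the D28-LP arrays and 4.18 to 4.56 in the D10-LP arrays. The main adult receptor *Agtr1a* and the converting enzyme *Ace* differed by −0.06 ± 0.10 and −0.09 ± 0.08.

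Among 17 prostanoid genes 2 rose and 1 fell. *Ptgds*, a prostaglandin D synthase, rose by 1.61 ± 0.16, and *Ptgs2*, the inducible cyclooxygenase, was at 9.51, 10.16, 9.43, 9.85 and 10.20 in the D28-LP arrays and at 10.86, 10.88, 10.67, 10.95 and 11.29 in the D10-LP arrays (−1.10 ± 0.16). *Ptger1*, the receptor gene EP1 that the study centres on, was at 6.14, 6.54, 7.36, 6.82 and 5.96 in the D28-LP arrays and at 5.42, 5.24, 5.36, 5.49 and 5.24 in the D10-LP arrays. The groups did not overlap, the difference was 1.21 ± 0.22 (adjusted p = 0.000551), and the D28-LP values ranked as the inner medulla means did except for replicates 1 and 5. The second *Ptger1* probe set differed by −0.06, and the mean of both by 0.58.

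The other candidate genes of the study lay under 2-fold. *Runx1* differed by 0.63 ± 0.16, *Proser2* by 0.46 ± 0.18 and *Kank3* by 0.45 ± 0.17 (adjusted p = 0.00579, 0.0442 and 0.0362). *Tbx3* differed by −0.40 ± 0.24 (adjusted p = 0.167). For all 4 the groups overlapped, and within the D28-LP group replicate 3 was the highest.

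**Figure D4:**
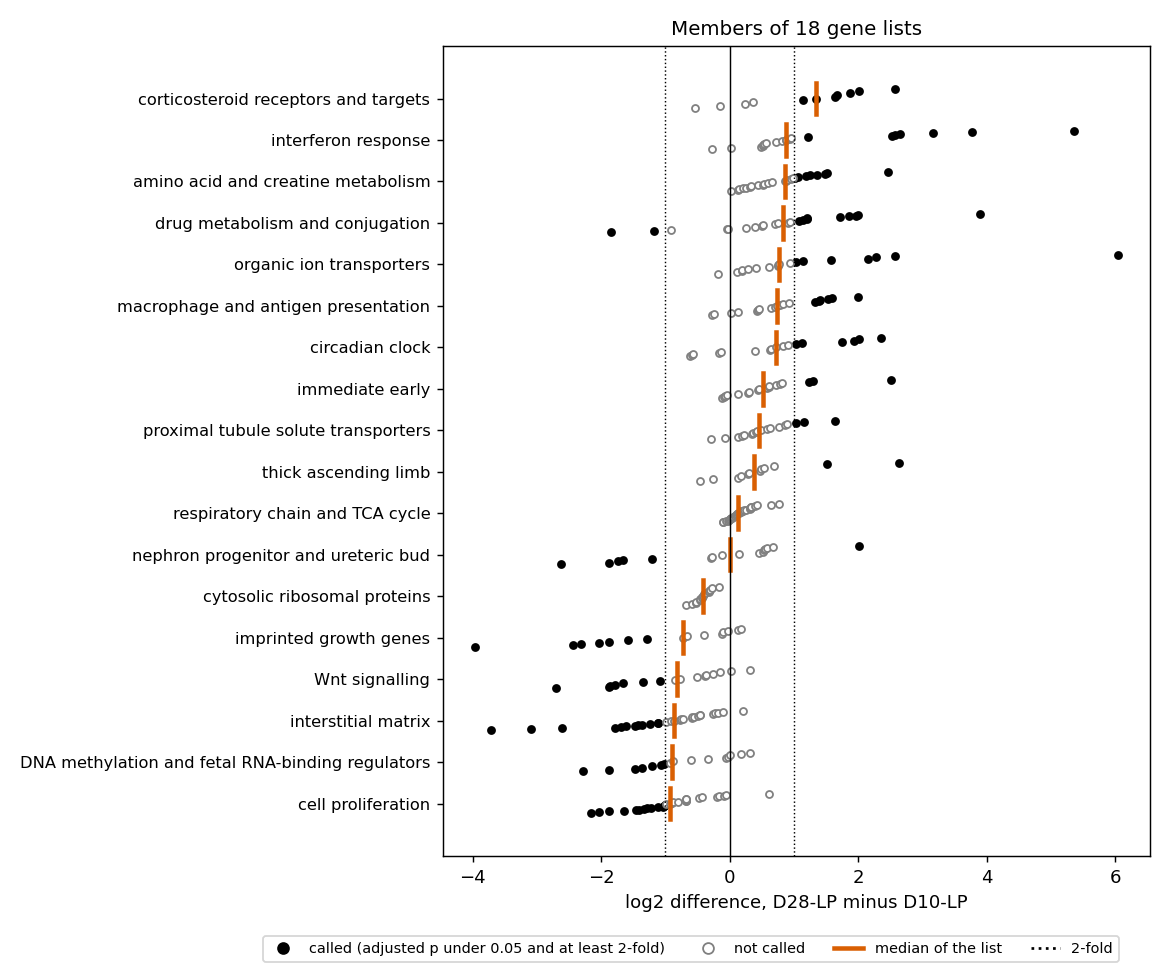
Log2 difference, D28-LP minus D10-LP, of the measured members of 18 gene lists; filled points were called, open points were not, orange bars are list medians and dotted lines mark 2-fold. Medians run from 1.35 for corticosteroid receptors and targets to −0.92 for cell proliferation.

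Of 30 cytosolic ribosomal protein genes listed, 16 were measured, and all 16 differences were below 0, between −0.67 and −0.16 (median −0.42). None reached 2-fold, and the arrays did not overlap at 15 of the 16, against 42% of all probe sets (21.1% in the lower direction). *Rpl3* was at 12.87, 12.93, 12.91, 12.96 and 12.91 in the D28-LP arrays and at 13.47, 13.44, 13.45, 13.44 and 13.40 in the D10-LP arrays (−0.52 ± 0.04), although its second probe set differed by 0.24. Immediate early and stress genes were higher in part, with 3 of 18 and 3 of 13 called, against 2.6% of all probe sets called higher. Under hybridization control centring 1 of each was called higher, beside 352 of all 31042 probe sets. *Zfp36*, which destabilizes inflammatory transcripts, was at 9.30, 9.67, 10.10, 9.62 and 9.84 in the D28-LP arrays and at 7.05 to 7.51 in the D10-LP arrays (2.51 ± 0.14). The stress genes *Atf3* (1.29 ± 0.28) and *Herpud1* (1.48 ± 0.16) rose as well.

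Whether the change with age differed by maternal diet was tested as the change in LP kidneys minus the change in CN kidneys, over 20 arrays. No probe set passed an adjusted p of 0.05 in limma (0%), the smallest adjusted p was 0.952, and 980 probe sets (3.16%) had an unadjusted p under 0.05. With no diet difference at any probe set, about 1552 would be expected there. Of the 1803 probe sets called in LP kidneys, 1801 had the same sign in CN kidneys. In CN kidneys 1831 (5.9%) were called, and the 1499 called in both made up 83.1% of the LP calls and 81.9% of the CN calls. Over the 1803 probe sets the median of the diet difference was −0.02, and its 5th and 95th percentiles were −0.35 and 0.42. The half-width of the 95% interval was 0.24 at the median probe set, before any adjustment for the number of probe sets, so the absence of calls does not show that the diets changed the kidney alike.

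The smallest p-values belonged to genes with modest differences. *Nfkbia*, the inhibitor of NF-kappa-B, changed by 1.89 in LP kidneys and by 0.93 in CN kidneys, a difference of 0.96 (95% interval 0.37 to 1.55). *Slfn2* changed by 0.90 in LP kidneys and 0.49 in CN kidneys, a difference of 0.40 (0.18 to 0.63). The mitotic checkpoint gene *Trip13* (−0.38, −0.58 to −0.17), the repair gene *Palb2* (−0.38, −0.60 to −0.16) and *Rbak* (−0.29, −0.45 to −0.14) changed further downward in LP kidneys, and *Myom2* further upward by 0.26 (0.10 to 0.42). All 6 had an adjusted p of 0.952. They were picked for the smallest p-values in each direction, so their intervals, which carry no adjustment, do not show a diet difference. *Nr4a1*, an immediate early transcription factor gene, had a difference of 1.14 ± 0.44 (SE), with a change of 1.24 in LP and 0.10 in CN kidneys, and the same adjusted p of 0.952. *Ugt2b35* rose by 7.90 in LP and by 8.12 in CN kidneys, and *Nefm* fell by 5.78 in LP and fell by 5.88 in CN kidneys.

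**Figure D5:**
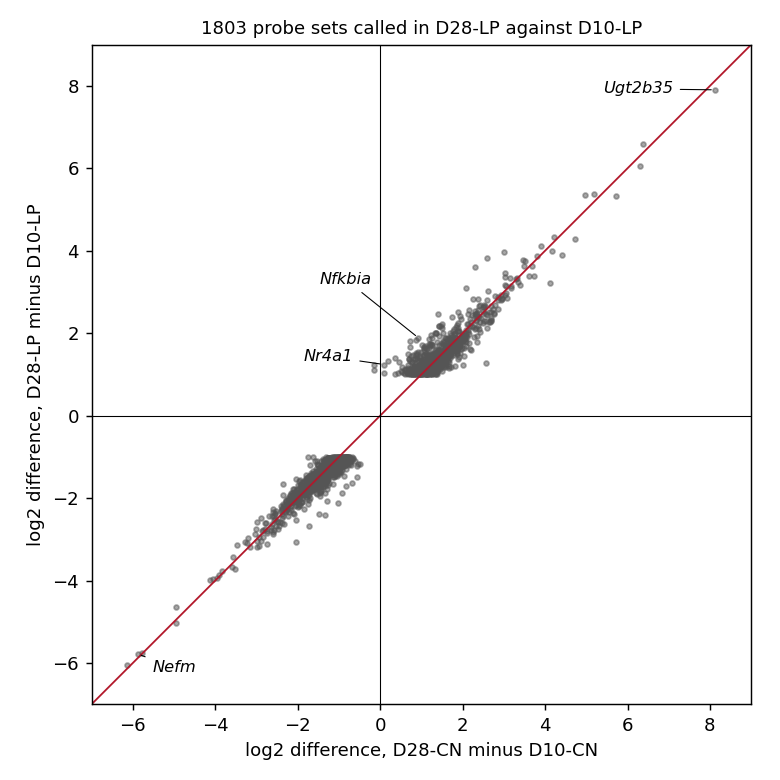
Change between D10 and D28 (log2 difference of group means) in LP kidneys against the same change in CN kidneys, for the 1803 probe sets called in LP kidneys; each point is a probe set and the red line marks equal change. The points follow the line, with 1801 of 1803 on the same side of 0 in both diets; they were chosen by their LP change, so the range within 1 of 0 on that axis is empty.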

How the data were processed

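The authors hybridized kidney RNA to Affymetrix rat genome expression arrays, and the deposited value table holds a log2 value for each probe set, normalized by the authors in R. The names of their per-age tables give qFARMS as the summary method, and that the value table was made the same way is not stated. Whether the ages were normalized together is not known, and the tables carry no detection call. A further 30 array columns of deposited per-age tables, whose names show no sample, and the authors' rank product columns beside them were not used. Of 31099 probe sets, 57 controls were left out. Values were compared as deposited in R 4.3.3 by linear models of the package limma 3.58.1 with moderated variances (2-sided, Benjamini-Hochberg adjustment over all probe sets), on the 10 LP arrays, and on 20 arrays with 4 group means for the diet contrast. The fits were tested on simulated data. One symbol was given for 20826 probe sets, several for 436 and none for 9780. The platform symbols were updated through RefSeq (GRCr8) for 20758. A gene stood for its probe set with the highest mean. Named were the 15 largest rises and falls, up to 4 called members of each list (otherwise the 2 with the smallest p), the study's candidate genes, for the diet contrast the 3 smallest p in each direction, and list members given by value. The comparison and the 48 gene lists, which share some genes, were chosen with earlier results of these data known. The precision is limited by 5 arrays a group.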

Additional observations from a re-analysis of the deposited data

Results flagged for a closer look

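In 19 of 360 sets of 5 arrays (180 named genes, 2 groups), 1 array lay far from the other 4, judged by its gap to the nearest value over the whole range (Dixon's ratio, critical value 0.71), and chance alone passes this for about 1 set in 20. In the D28-LP group, replicate 3 was low for *Slc9a3* (ratio 0.905), *Hnmt* (0.793), *Eno1* (0.788), *Umod* (0.783), *Oat* (0.767) and *Gba3* (0.745), and it was also the array with the lowest cortex marker mean, 10.48 against 10.77 to 11.31. Replicate 5 of the D28-LP group was low for *Tsc22d3* (0.78), *Slc22a2* (0.774), *Idi1* (0.757) and *Tff3* (0.742) and high for *Moxd1* (0.737), and replicate 1 was high for *Slc2a5* (0.783). In the D10-LP group, replicate 3 was high for *Wif1* (0.867) and low for *Shisa3* (0.735) and *Ddit3* (0.721), replicate 4 was low for *Igf2bp3* (0.85) and high for *Fbln1* (0.716), replicate 2 was high for *Cthrc1* (0.766), and replicate 1 was high for *Ogdh* (0.713).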

How the results depend on the processing

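The count of 1803 calls (806 higher, 997 lower) stayed within 1.5 times under quantile normalization (1790), median centring (1802), fits over 20 or 30 arrays (1802 and 1801), the trend and robust options (1803), the methods' t-test with adjustment (1790) and an adjusted p of 0.2 (1804). It became 991 (527 and 464) with the dimmer probe sets left out, where fewer were tested, 744 (300 and 444) when tested against a 2-fold difference, 260 (132 and 128) at 4-fold, 17648 (9077 and 8571) with no fold, and 3382 (352 and 3030) with hybridization control centring, an alternative chosen after seeing the data, as was leaving out 3 D10-LP arrays (1982). Leaving out each array gave 1758 to 1877 calls, 788 to 855 of them higher and 970 to 1023 lower, and 146 to 160 called list genes against 153. With the replicate number as a block the calls numbered 1803, and 0 for the diet contrast. The numbers were not treated as pairs, since same-numbered arrays deviated from their group means with r between −0.14 and 0.46. The diet contrast stayed at 0 calls under every alternative run, and at its lowest the smallest adjusted p was 0.715, with 1 array left out.

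Of 141 called named genes, 108 were called under every alternative run on them. The sign turned under hybridization control centring for *Cdh16* (−0.0475), *Myh1* (−0.14), *Myom2* (−0.0793), *Aqp2* (−0.28), *Hbb* (−0.0648), *Slc12a1* (−0.26) and *Slc34a1* (−0.0231). *Gnas* turned under quantile normalization (0.0323), median centring (0.0206) and without D28-LP replicate 5 (0.0033) or D10-LP replicate 4 (0.00796), its range with 1 array left out being −0.0613 to 0.00796, *Agtr1a* without D28-LP replicate 2 (0.0167, range −0.129 to 0.0167) or without the 3 D10-LP arrays (0.0119), and *Adipoq* without those 3 (0.38). *Adipoq* is among the markers by which those 3 arrays were picked. The causes were not tested. Values near the low end of the scale carry no detection call, which limits folds against them.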
